A study of Mus musculus with 12 samples.

Results

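Interleukin-6 (IL-6) family cytokines, their receptors and the feedback inhibitor Socs3 were followed in mouse mesenchymal stem cells with and without Dicer1. The genes were 5 ligands (Il6, Lif, Il11, Ctf1, Clcf1), 4 receptor chains (Il6ra, Il6st, Lifr, Osmr) and Socs3. They were taken by name from a table of 21881 genes, and 10 of 10 were found. Of these, 8 passed the filter for testing, which asked for 3 or more libraries at an FPKM of 1 or above, as did 11801 genes in all. Il6 and Il11 did not.

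IL-6 family cytokines signal through gp130, the product of Il6st, which these cytokines share. IL-6 and IL-11 first bind a ligand-specific chain (Il6ra, Il11ra1). LIF and cardiotrophin-1 (Ctf1) use gp130 together with the LIF receptor (Lifr), and CLCF1 uses both with a further chain (Cntfr). Oncostatin M in the mouse uses gp130 with Osmr. The receptors activate JAK kinases and the transcription factor STAT3, and STAT3 induces Socs3, whose product binds gp130 and the JAKs and turns the signal off. Bone marrow stromal cells are known as a source of these cytokines, which act there on blood progenitors, osteoblasts and osteoclasts.

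The cells were immortalized lines of marrow mesenchymal stem cells, a fibroblast-like cell type, grown from single cells of C57BL/6 mice. WT cells were Dicer f/f, with floxed but intact alleles, and KO cells were Dicer -/-, so they lack the nuclease that makes mature microRNAs. A nontargeting siRNA was given to cells of either genotype (WT_siCtrl, KO_siCtrl), and further KO cells received the microRNA let-7g (KO_let-7g) or an siRNA against the nuclear receptor gene Nr6a1 (KO_siNr6a1). Each was transfected at 20 nM, RNA was taken after 48 h, and there were 3 libraries per group, numbered 0 to 2. The labels do not say how many lines of a genotype were used or that libraries came from separate cultures. The loss of Dicer1 and the line a culture came from therefore cannot be told apart, and a p-value here measures the spread among these libraries alone, which could be technical.

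Mean FPKM of Nr6a1 was 1.12 ± 0.158 in WT_siCtrl and 11.7 ± 1.32 in KO_siCtrl, and it was 3.68 ± 0.539 under the siRNA against it and 4.22 ± 1.04 under let-7g (SD, n = 3). Dicer1, measured over the whole gene and not over the deleted part alone, was at 6.58 ± 1.45 in WT_siCtrl and between 2.70 and 3.86 in the KO groups. Relative depth, read from the steps between low values, ran from 1 to 1.31 in KO_siCtrl and from 1.11 to 1.29 in WT_siCtrl. KO_let-7g had 1.34 to 1.82, and KO_siNr6a1 had 1.13 to 1.57. Of 13 stromal markers 12 passed the filter, and Thy1 was at or near 0. The 13 summed to 3919 to 4641 FPKM in WT_siCtrl and 2260 to 2414 in KO_siCtrl. In KO_let-7g the sum was 2486 to 2666, and in KO_siNr6a1 2656 to 2707. Between WT_siCtrl and KO_siCtrl 4 of the 12 rose and 6 fell, where 29.1% and 25.2% of all tested genes did. Of 10 blood cell markers in the table, Ptprc, Itgam, Emr1 and Cd3e were at or near 0. Their summed FPKM ran from 8.63 to 10.9 in WT_siCtrl, 12.7 to 15.8 in KO_siCtrl, 18.7 to 26.4 in KO_let-7g and 9.09 to 11.2 in KO_siNr6a1, carried mostly by Cd14 and Cd68. The 6 endothelial markers each stayed under 0.5 in every group mean, and of 5 epithelial markers only Krt19 passed the filter (1.85 ± 0.565 in WT_siCtrl).

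The words that pair with the seed of let-7g were looked up in the 3′ UTRs of the 10 genes, because let-7g was the microRNA returned to the KO cells. The mature sequence, from RefSeq (GRCm38.p6), is shown with its seed, bases 2 to 8, in capitals, and the sites, from the GENCODE vM21 transcripts, with the bases that match the site word in capitals.
mmu-let-7g-5p: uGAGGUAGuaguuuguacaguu
Osmr, 8mer: tcctctttagtttttgaCTACCTCAgaaca
Il6, 7mer-A1: tcttggaatgtataagttTACCTCAatgaa
Il6ra, 7mer-A1: tatccgttaaaaacaggaTACCTCAatgct
Lifr, 7mer-A1: atgctgtcatacctgtctTACCTCAgtgtc
The other 6 genes held none of the words CTACCTCA (8mer), CTACCTC (7mer-m8) and TACCTCA (7mer-A1). Among 17951 genes with a 3′ UTR, 3.21% held the 8mer, 9.5% the 7mer-m8 and 10.2% the 7mer-A1. The Osmr word starts at base 740 of a UTR of 1794 bases, and the Il6ra word at base 3483 of 7102. A match of letters is a description and does not show that let-7g binds there.

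Loss of Dicer1 was first compared under control siRNA (KO_siCtrl against WT_siCtrl). The ligand Lif, the receptor chains Il6ra, Osmr and Il6st, and Socs3 rose, and the LIF receptor gene Lifr and the ligand Clcf1 fell. That is 5 higher and 2 lower of the 8 genes tested, where 54.3% of all tested genes were called in this comparison, 29.1% higher and 25.2% lower. In 57.2% of all tested genes these groups did not overlap. Lif passed the filter mainly, and Ctf1 only, through KO libraries, so the count describes these genes and supports nothing beyond them. As RNA was taken from whole cultures, more cells with a transcript and more transcript per cell cannot be told apart.

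**Figure D1:**
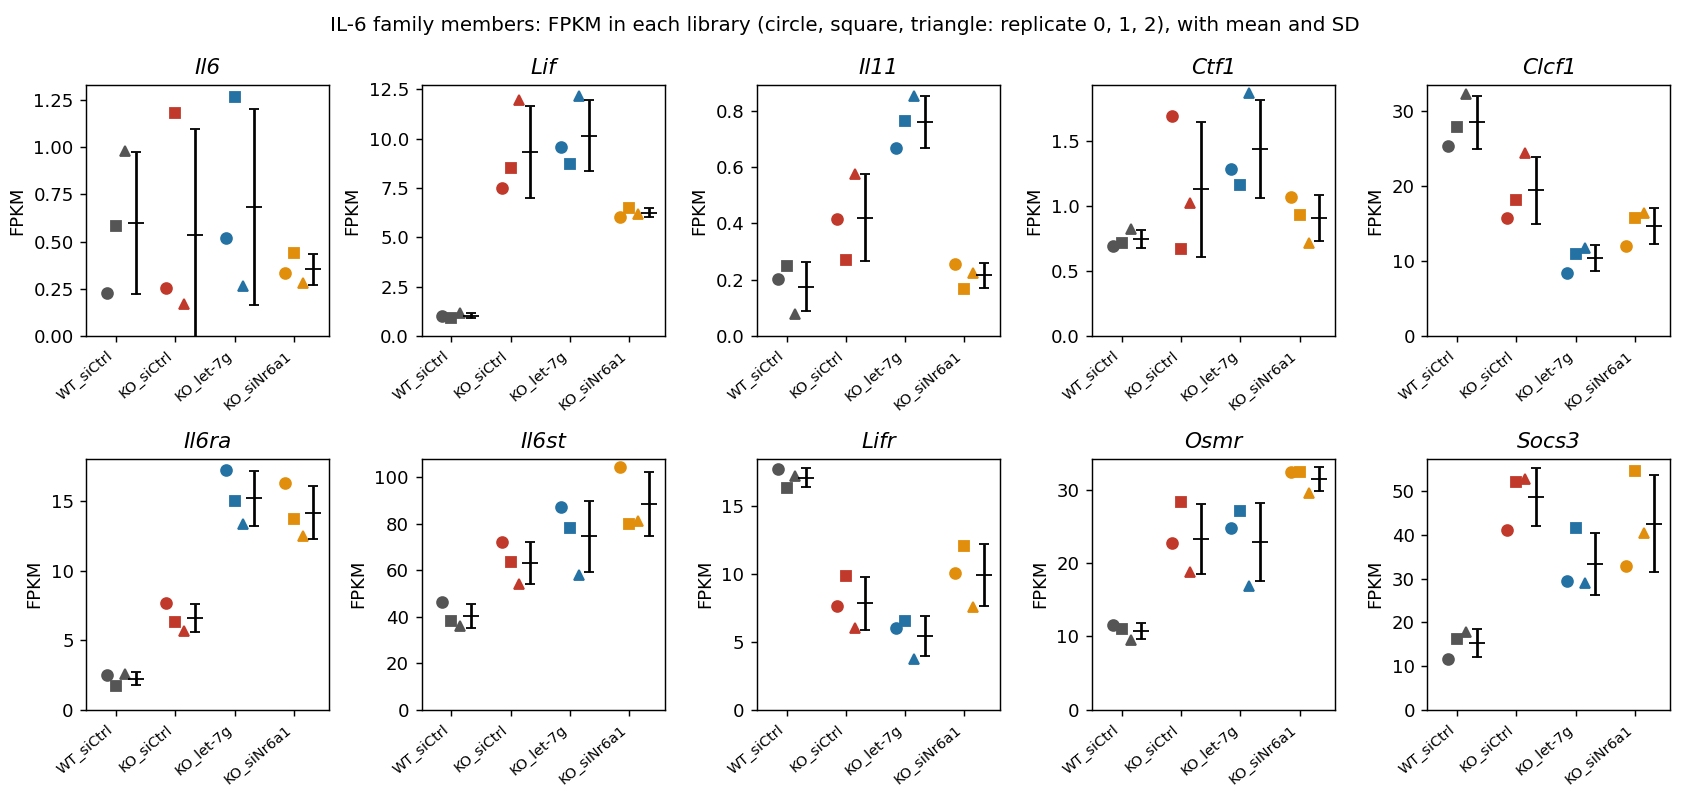
FPKM of each of the 10 genes (vertical axis, linear, 1 panel per gene) in the 12 libraries of 4 groups, with the group mean and SD (n = 3), SD bars ending at 0 where they would pass it. Lif lies between 0.906 and 1.19 in WT_siCtrl and above 6 in every KO library, and Il6ra is lowest in WT_siCtrl and highest in KO_let-7g and KO_siNr6a1.

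Among the ligands, Lif, which binds Lifr and gp130 and is known for keeping mouse embryonic stem cells undifferentiated, differed most in this comparison. Its FPKM was 1.01, 0.906 and 1.19 in the WT_siCtrl libraries and 7.51, 8.53 and 11.97 in KO_siCtrl. Every KO_siCtrl library lay above every WT_siCtrl library. The log2 fold change of FPKM + 1, the scale of all fold changes here, was 2.32 ± 0.16 (SE; limma adjusted p = 4.43e-07).

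Clcf1, a ligand that signals through Lifr and gp130, went the other way. Its FPKM was 25.3, 27.9 and 32.3 in WT_siCtrl and 15.7, 18.2 and 24.3 in KO_siCtrl, with no overlap but a narrow gap. The fold change was -0.55 ± 0.18 (limma adjusted p = 0.0214), and the call was lost without WT_siCtrl replicate 2, KO_siCtrl replicate 0 or KO_siCtrl replicate 1 (highest limma adjusted p = 0.0889). Clcf1 also shares 311 exonic bases on its own strand with another gene model, so some reads could belong to either.

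Ctf1, the gene of cardiotrophin-1, was low in every library and its groups overlapped. It stood at 0.690, 0.716 and 0.820 in WT_siCtrl and at 1.69, 0.671 and 1.02 in KO_siCtrl. The fold change of 0.26 had a 95% interval from -0.11 to 0.63 (limma adjusted p = 0.21), and it reached 0.0494 only without KO_siCtrl replicate 1. Ctf1 overlaps Ctf2 on the opposite strand by 87 exonic bases, and the use of strand in counting is not stated in the sources used here.

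The receptor chains did not all go one way. Il6ra, the chain that binds IL-6 itself, had an FPKM of 2.46, 1.70 and 2.55 in WT_siCtrl and 7.67, 6.33 and 5.69 in KO_siCtrl, with no overlap and a fold change of 1.23 ± 0.15 (limma adjusted p = 4.18e-05). Il6st, the most abundant transcript of the 10 on this per-length scale, stood at 46.2, 38.3 and 36.3 against 72.1, 63.7 and 54.1, a fold change of 0.64 ± 0.17 (limma adjusted p = 0.00745). For Osmr the values were 11.6, 11.04 and 9.55 against 22.8, 28.3 and 18.8 (1.04 ± 0.17, limma adjusted p = 0.000421). All 3 chains were higher in every KO_siCtrl library than in any WT_siCtrl library. Il6ra overlaps an antisense gene model by 242 exonic bases, and reads of the 2 could not be told apart without strand.

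Lifr, the chain that pairs with gp130 for LIF, was lower by a similar amount on the log2 scale. Its FPKM was 17.7, 16.4 and 17.3 in WT_siCtrl and 7.66, 9.89 and 6.00 in KO_siCtrl, with a fold change of -1.06 ± 0.21 (limma adjusted p = 0.0014). The ligand Lif and its receptor gene Lifr thus differed in opposite directions. Of the tested members with a let-7 word, shown above, Osmr (8mer) and Il6ra (7mer-A1) were higher in KO_siCtrl and Lifr (7mer-A1) was lower. The part of these words in the differences was not tested.

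Socs3 followed Lif in direction. The inhibitor stood at 11.7, 16.3 and 17.7 in WT_siCtrl and at 41.0, 52.2 and 52.8 in KO_siCtrl, with all KO_siCtrl libraries above all WT_siCtrl libraries. The fold change was 1.62 ± 0.21 (limma adjusted p = 6.57e-05).

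let-7g was then compared with control siRNA in KO cells, which asks what the return of a single microRNA does. Il6ra rose and Clcf1 fell, 1 gene each way of 8 tested, where 45.6% of all tested genes were called (27.5% higher, 18.2% lower) and 55.4% did not overlap between the groups. Il6ra stood at 17.3, 14.99 and 13.4 in KO_let-7g, above all KO_siCtrl libraries, with a fold change of 1.10 ± 0.15 (limma adjusted p = 0.000146). Clcf1 stood at 8.44, 10.9 and 11.8, below all KO_siCtrl libraries, with a fold change of -0.83 ± 0.18 (limma adjusted p = 0.00278). In both genes the KO_siCtrl libraries lay between those of WT_siCtrl and those of KO_let-7g. The 2 blood cell markers that passed the filter both rose here. Cd68 went from 1.84 ± 0.453 to 5.82 ± 1.32 (1.25, limma adjusted p = 0.000133) and Cd14 from 11.6 ± 1.69 to 15.7 ± 3.12 (0.40, 0.0496). Csf1r, below the filter, stood at 0.494 ± 0.0567 in KO_siCtrl and 0.0654 ± 0.0373 in KO_let-7g, and Ptprc and Itgam were near 0 in both. The part of these markers in the Il6ra result was not tested.

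Same-number libraries moved together around their group means, and a fit that takes the replicate number as a block called 5 genes here. Over all 11801 tested genes that fit called 6878, against 5383 without the block. With the block, Socs3 (-0.54, limma adjusted p = 0.00386) and Lifr (-0.47, 0.0146) were called lower and Il6st (0.22, 0.0343) higher. Without it the limma adjusted p was 0.0535 for Socs3, 0.0923 for Lifr and 0.305 for Il6st. Of 23 alternative fits, the block included, Socs3 was called in 11, Lifr in 3 and Il6st in 1. Those for Socs3 included quantile, upper quartile and median of ratios scaling. Socs3 stood at 29.4, 41.5 and 29.0 in KO_let-7g, and 1 of these libraries overlapped KO_siCtrl. Lifr stood at 6.00, 6.56 and 3.74, and Il6st at 87.4, 78.4 and 57.9, with overlap in both.

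Lif and Osmr showed little difference under let-7g. Lif was at 9.56, 8.74 and 12.2, in the range of KO_siCtrl, with a fold change of 0.12 and a 95% interval from -0.22 to 0.46. Osmr, which holds the 8mer word, stood at 24.8, 27.0 and 16.9, with a fold change of -0.03 and an interval from -0.41 to 0.35 (limma adjusted p = 0.911). Ctf1 stood at 1.28, 1.16 and 1.86, also overlapping KO_siCtrl (0.21, limma adjusted p = 0.323).

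**Figure D2:**
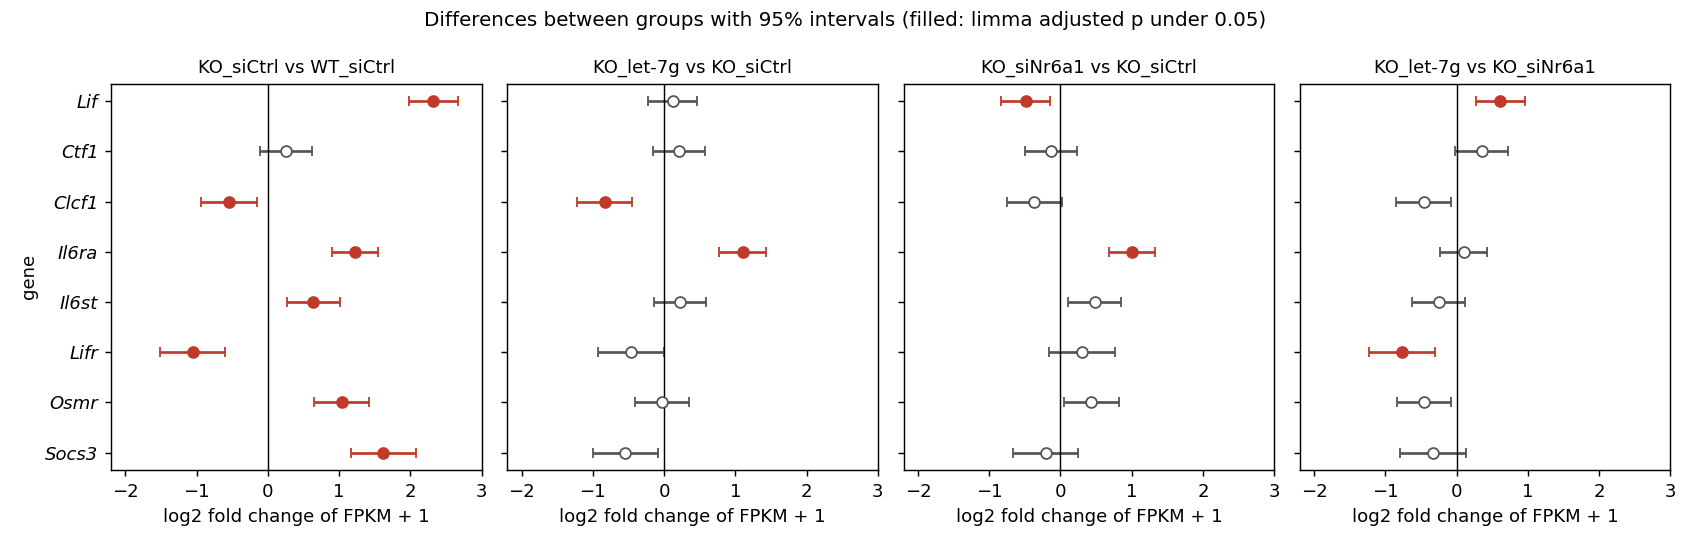
Log2 fold change of FPKM + 1 (horizontal axis) of the 8 tested genes in 4 comparisons, with 95% intervals from the limma fit (12 libraries, 3 per group). Filled points have an adjusted p under 0.05. Il6ra is near 1 in the first 3 panels and at 0.10 in the last, where let-7g and the siRNA against Nr6a1 are compared directly.

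Knockdown of Nr6a1, a gene whose mRNA let-7g also lowered, was compared with the same KO_siCtrl libraries. Il6ra rose and Lif fell, 1 gene each way of 8 tested, where 29.4% of all tested genes were called (13.2% higher, 16.3% lower) and 46.1% did not overlap. Il6ra was at 16.3, 13.7 and 12.5, above all KO_siCtrl libraries, with a fold change of 1.01 ± 0.15 (limma adjusted p = 0.000646). The summed blood cell markers, carried mostly by Cd14 and Cd68, ran from 9.09 to 11.2 in these libraries and from 12.7 to 15.8 in KO_siCtrl. The part of these markers in the Il6ra result was not tested. Lif was at 6.04, 6.51 and 6.21, below all KO_siCtrl libraries, with a fold change of -0.49 ± 0.16 (limma adjusted p = 0.0358). The Lif call was lost in 9 of 23 alternatives, among them leaving out KO_siCtrl replicate 1 or 2 or any KO_siNr6a1 library (highest limma adjusted p = 0.121), and without KO_siCtrl replicate 2 the fold change was -0.31.

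With the replicate block 5 genes were called in this comparison. Over all 11801 tested genes the block called 5248, against 3474 without it. Il6st (0.48, limma adjusted p = 0.00118) and Osmr (0.44, 0.00858) were called higher beside Il6ra, and Clcf1 (-0.37, 0.00404) lower beside Lif. Without the block the limma adjusted p was 0.0521, 0.0818 and 0.142. Of 23 alternatives, the block included, Il6st was called in 8, Osmr in 4 and Clcf1 in 1. The Il6st values of 104.6, 80.1 and 81.3 and the Osmr values of 32.4, 32.3 and 29.5 lay above all KO_siCtrl values. Clcf1, at 11.96, 15.7 and 16.4, overlapped KO_siCtrl.

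Lifr and Socs3 were not called in the knockdown by either fit. Lifr stood at 10.1, 12.1 and 7.56 (0.30, limma adjusted p = 0.305), and Socs3 at 32.8, 54.6 and 40.4 (-0.21, 0.494). Ctf1 stood at 1.07, 0.932 and 0.715 (-0.13, 0.585). In each of these genes the groups overlapped.

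The treatments were compared directly, KO_let-7g against KO_siNr6a1. Lif was higher under let-7g (0.61 ± 0.16, limma adjusted p = 0.00931) and Lifr lower (-0.77 ± 0.21, 0.013), 1 gene each way of 8, where 40.9% of all tested genes were called (27.6% higher, 13.3% lower) and 55.4% did not overlap. In both genes the groups did not overlap. The Lifr call was lost without KO_let-7g replicate 2 or KO_siNr6a1 replicate 1 (highest limma adjusted p = 0.0531), and with library weights its fold change was -0.43. Il6ra did not pass the test, with a difference of 0.10 and a 95% interval from -0.23 to 0.42 (limma adjusted p = 0.64).

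Clcf1 and Osmr were lower in every KO_let-7g library than in any KO_siNr6a1 library, yet missed the threshold (-0.47, limma adjusted p = 0.0548, and -0.46, 0.0517). Each was called in 8 of 23 alternatives. With the block 6 genes were called, 1 higher and 5 lower, where 6461 of all 11801 tested genes were (4356 higher, 2105 lower). Added were Clcf1 (limma adjusted p = 0.000796), Osmr (0.00466), Il6st (-0.26, 0.0205) and Socs3 (-0.33, 0.0406). Without the block the limma adjusted p was 0.248 for Il6st and 0.226 for Socs3. The median over all tested genes was 0.12 in this comparison and -0.01 after median of ratios scaling, so values here carry a shift of that size.

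Against WT_siCtrl, 8 of 8 genes differed in KO_let-7g, 6 higher and 2 lower, where 58.2% of all tested genes were called (35.3% higher, 22.8% lower) and 60.9% did not overlap. In KO_siNr6a1 5 were higher and 2 lower of 8, where 54.3% were called (27.0% higher, 27.4% lower) and 59.1% did not overlap. Il6ra was 2.33 ± 0.15 above WT_siCtrl in KO_let-7g (limma adjusted p = 3.39e-07) and 2.23 ± 0.15 above it in KO_siNr6a1 (4.24e-07). Lif was 2.44 and 1.83 above it, Osmr 1.01 and 1.47, and Lifr -1.52 and -0.75 from it. These comparisons share the WT_siCtrl libraries. Ctf1, which passed the filter only through KO libraries, was called only in KO_let-7g (0.47, limma adjusted p = 0.0298). That call was lost in 5 of the 22 alternatives that tested Ctf1. Among them were those without any 1 of the 3 WT_siCtrl libraries or without KO_let-7g replicate 2 (highest limma adjusted p = 0.118). With a pseudocount of 0.1 the fold change of Ctf1 was 0.84.

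The order of the group means differed from gene to gene. Il6ra ran from WT_siCtrl (2.24 ± 0.468) over KO_siCtrl (6.56 ± 1.01) to KO_siNr6a1 (14.2 ± 1.93) and KO_let-7g (15.2 ± 1.96), the last pair not differing beyond their spread. Il6st ran from WT_siCtrl (40.2 ± 5.24) over KO_siCtrl (63.3 ± 8.98) and KO_let-7g (74.6 ± 15.1) to KO_siNr6a1 (88.6 ± 13.8). Its neighbours above WT_siCtrl overlapped. Lifr ran the other way from WT_siCtrl (17.1 ± 0.694) over KO_siNr6a1 (9.91 ± 2.27) and KO_siCtrl (7.85 ± 1.95) to KO_let-7g (5.43 ± 1.49), with overlap between neighbours in the KO groups. Clcf1 fell from WT_siCtrl (28.5 ± 3.52) over KO_siCtrl (19.4 ± 4.45) and KO_siNr6a1 (14.7 ± 2.41) to KO_let-7g (10.4 ± 1.73).

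Il6 and Il11 were near the floor of the measurement. Il6 had an FPKM of 0.227, 0.584 and 0.981 in WT_siCtrl, 0.252, 1.18 and 0.170 in KO_siCtrl, 0.519, 1.27 and 0.265 in KO_let-7g and 0.335, 0.442 and 0.282 in KO_siNr6a1. The libraries of a group differed as much as the groups did, and an exact permutation test over the 4 groups gave p = 0.808. Replicate 1 held the highest Il6 value in each of the KO groups. Multiplied by relative depth, 11 of 12 values were whole multiples, within 0.02, of a common step, from 3 to 27 steps. If a step is 1 read, which is not known, the Il6 values rest on few reads.

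Il11, whose protein acts through Il11ra1 and gp130, showed an order among the groups. Its FPKM was 0.202, 0.247 and 0.0777 in WT_siCtrl, 0.416, 0.269 and 0.576 in KO_siCtrl, 0.668, 0.763 and 0.852 in KO_let-7g and 0.256, 0.168 and 0.225 in KO_siNr6a1. All KO_let-7g libraries lay above all others, and KO_siNr6a1 overlapped WT_siCtrl. The exact permutation test over the 4 groups gave p = 0.000649 (0.000811 adjusted over the 5 such tests run, 4 of them reported here and all chosen after the values were seen). Fitted without the filter over 19916 genes, Il11 was higher in KO_let-7g than in KO_siCtrl (0.31, limma adjusted p = 0.0167; 27.9% of those genes were called) and than in KO_siNr6a1 (0.53, 0.00138; 24.3%). It was also higher in KO_siCtrl than in WT_siCtrl (0.27, 0.0263; 35.9%). Against WT_siCtrl the KO_let-7g libraries were 0.58 higher (0.000351; 38.2%), and the KO_siNr6a1 libraries missed the threshold against WT_siCtrl (0.05, 0.715; 35.5%) and KO_siCtrl (-0.22, 0.106; 16.5%). Il6 was called in none of the 6 comparisons of that fit (limma adjusted p from 0.583 to 0.937).

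Ratios of FPKM within a library do not depend on scaling of that library. They compare the transcripts of 2 receptor chains per length and do not measure the proteins. Il6ra per Il6st was 0.0533, 0.0444 and 0.0704 in WT_siCtrl, 0.106, 0.0994 and 0.105 in KO_siCtrl, 0.198, 0.191 and 0.231 in KO_let-7g and 0.156, 0.172 and 0.154 in KO_siNr6a1. No 2 groups overlapped in this ratio. The exact permutation test over the 4 groups gave the smallest p it can give, 6.49e-05 (0.000324 adjusted over the 5 tests). As the ratio was chosen after its values were seen, this p restates that separation and is no independent support. Any pair of groups alone, 3 libraries against 3, cannot go below p = 0.1 in a two-sided exact test.

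Lifr per Osmr, the receptor chains that share gp130 as partner, was 1.53, 1.48 and 1.81 in WT_siCtrl and between 0.221 and 0.374 in the 9 KO libraries. Lifr was thus the more abundant of the pair in WT cells and Osmr in KO cells, per length of transcript. KO_let-7g (0.235 ± 0.0124) lay below KO_siCtrl (0.335 ± 0.015) and KO_siNr6a1 (0.314 ± 0.059) overlapped KO_siCtrl. The exact permutation test over the 4 groups gave p = 0.000584 (0.000811 adjusted over the 5 tests), for a ratio also chosen after its values were seen.

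**Figure D3:**
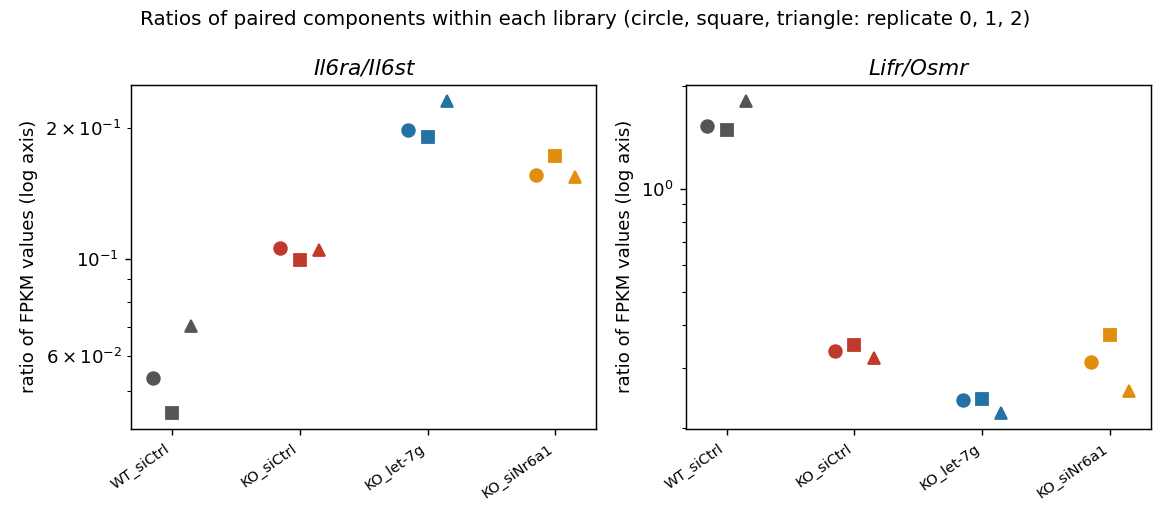
Ratios of FPKM values within each library (vertical axes, log scale) for Il6ra per Il6st and Lifr per Osmr, by group, 3 libraries each. The Il6ra ratio has no overlap between groups, and in the Lifr ratio the WT_siCtrl libraries lie apart from the 9 KO libraries.

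Among other receptors and ligands of the family, Il11ra1, the IL-11 chain, fell from 11.4 ± 2.63 in WT_siCtrl to 7.61 ± 0.791 in KO_siCtrl (-0.51, limma adjusted p = 0.0164, lost without WT_siCtrl replicate 1 or 2 or KO_siCtrl replicate 1) and stood at 11 ± 0.490 in KO_let-7g (0.48, 0.0249, lost without any KO_let-7g library or without KO_siCtrl replicate 1 or 2, highest 0.0863). Il11ra2 is a near-identical copy, so reads may be split between them. Cntf, a ligand that signals through Lifr and gp130, fell with loss of Dicer1 (-0.50, limma adjusted p = 0.00345) and rose under let-7g (1.27, 1.23e-05) and the knockdown (0.46, 0.0113). Its model shares 847 exonic bases on the same strand with Zfp91, so these values may not be those of Cntf alone.

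Of 11 signal transducers, 2 rose and 4 fell with loss of Dicer1 (29.1% and 25.2% of all tested genes), with a list median of 0.05 beside 0.04 over all tested genes. Stat3, the main transcription factor of the pathway, was at 12.8, 13.7 and 13.1 in WT_siCtrl, 19.4, 18.1 and 16.6 in KO_siCtrl, 39.6, 36.7 and 30.4 in KO_let-7g and 46.7, 45.8 and 41.9 in KO_siNr6a1. The groups did not overlap, and each step from WT_siCtrl to KO_siCtrl (0.42, limma adjusted p = 0.00408) and from there to let-7g (0.94, 3.23e-05) or the knockdown (1.27, 2.67e-05) was called. Stat3 overlaps Stat5a by exonic bases, so a part of the reads may be shared. Jak1 (-0.74, limma adjusted p = 0.000108), Stat5a (-0.87, 7.33e-05), the phosphatase gene Ptpn11 (-0.70, 9.02e-05) and Jak2 (-0.75, 0.0119) fell with loss of Dicer1, and the adaptor Grb2 rose (0.32, 0.00212).

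Under let-7g 3 of the 11 transducers rose and 2 fell (27.5% and 18.2% of all tested genes). Jak2, a kinase that docks on gp130, rose from 12.5 ± 3.32 to 31.7 ± 7.68 (1.27, limma adjusted p = 0.000648), and Tyk2, another such kinase, fell from 10.8 ± 0.574 to 4.75 ± 0.645 (-1.04, 0.000109). Grb2 (0.22, 0.0222) and Gab1 (-0.30, 0.0213) were the others beside Stat3. Both lost their call when KO_siCtrl replicate 0 or 1 or KO_let-7g replicate 1 or 2 was left out (highest limma adjusted p = 0.187 and 0.0859), which left 2 rises and 1 fall. In the knockdown (13.2% and 16.3% of all tested genes) 2 rose, Stat3 and Gab1 (0.33, limma adjusted p = 0.0224, lost without KO_siCtrl replicate 2 or KO_siNr6a1 replicate 0), and 0 fell.

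Of 15 inhibitors and receptor sheddases, 7 rose and 2 fell with loss of Dicer1 (29.1% and 25.2% of all tested genes; list median 0.31 beside 0.04). Ptpn6 passed the filter only through KO libraries. Socs6 (1.60, limma adjusted p = 1.35e-07), the phosphatase genes Ptpn6 (1.49, 1.58e-06) and Ptpn2 (0.67, 0.000111), and Socs1 (1.37, 0.0014) rose together with Socs3, while Pias1 fell (-0.74, 8.55e-05). Under let-7g 3 rose and 3 fell (27.5% and 18.2% of all tested genes). With the replicate block it was 3 and 5, where 4085 rose and 2793 fell of all 11801 tested genes. In the fit without the block those that fell were Socs1, from 21.7 ± 5.29 to 8.13 ± 1.63 (-1.30, limma adjusted p = 0.00259), Pias4, from 42.1 ± 5.06 to 17.2 ± 1.59 (-1.25, 5.24e-05), and Cish, from 2.72 ± 0.204 to 1.39 ± 0.323 (-0.65, 0.00654). Socs2 (0.70, 0.001), Pias3 (0.56, 0.00169) and Pias1 (0.27, 0.0444) rose, the last with a call lost in 12 of 23 alternatives, 7 of them the removal of 1 library of either treated group or of KO_siCtrl (highest 0.18). In the knockdown 3 rose and 4 fell (13.2% and 16.3% of all tested genes), with Socs2 (0.58, limma adjusted p = 0.00605) and Pias1 (0.42, 0.00868) among the first and Ptpn6 (-0.46, 0.0127) among the second. Without KO_siCtrl replicate 0 the count was 3 and 0, without KO_siNr6a1 replicate 1 it was 2 and 1, and without KO_siNr6a1 replicate 2 it was 3 and 1.

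The 3 inhibitors that fell under let-7g, and Tyk2, hold a let-7 word in the 3′ UTR, shown here because these 4 pathway genes hold CTACCTC and were called lower in the fit without the block.
Tyk2, 8mer: ggggatggtcaggctttCTACCTCAtaggg
Socs1, 7mer-m8: ggacctgaattccactcCTACCTCtccatg
Pias4, 7mer-m8: tgtcgttttctagccagCTACCTCggtaac
Cish, 7mer-m8: ccccggcgtatggccgaCTACCTCcgacag
Of 8 tested genes of the pathway lists with CTACCTC in the UTR, 4 fell and 1, Stat3, rose under let-7g. The others, Socs4 (an 8mer), Socs7 and Il4ra, were not called. The member Osmr, which is not in those lists, holds it too and did not pass the test, as given above. Elavl1, the gene of an RNA-binding protein among the regulators, holds only the 7mer-A1 word and fell (-0.33, limma adjusted p = 0.00451). With the replicate block 2 further inhibitors, Ptpn6 and Adam10, were called lower, and neither holds a word. Over all tested genes, 39.4% of 1066 with CTACCTC fell, and 15.4% of 8505 with none of the words. Socs3 holds none of these words, whereas Socs1 does.

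Of 20 tested genes that STAT3 is known to induce, 10 rose and 2 fell with loss of Dicer1 (29.1% and 25.2% of all tested genes; list median 0.46 beside 0.04). Lbp, Saa3 and Lcn2, 3 of those that rose, passed the filter only through KO libraries, and Bcl3 mainly so, which makes the count a description. The Lcn2 call was lost in 10 of 22 alternatives and the Hif1a call in 3 of 23. The rises included the acute-phase genes Lbp (4.32, limma adjusted p = 9.49e-07), Saa3 (3.68, 1.09e-05) and C3 (2.41, 2.49e-05), and Bcl3 (2.11, 6.09e-07), a partner of NF-kB. Timp1, a protease inhibitor that gp130 cytokines are known to raise, fell (-0.98, limma adjusted p = 0.000126). Under let-7g 6 rose and 2 fell (27.5% and 18.2% of all tested genes), with Mcl1 (0.79, limma adjusted p = 1.26e-05) and Bcl6 (0.76, 0.000335) higher and Hp lower (-2.81, 0.00036). With the replicate block it was 11 and 4, where 4085 rose and 2793 fell of all 11801 tested genes. In the knockdown 4 rose and 1 fell (13.2% and 16.3% of all tested genes), with Timp1 (0.98, limma adjusted p = 0.000507) and Bcl3 (0.68, 0.00583) higher and Pim2 lower (-0.63, 0.00171). With the block it was 7 and 4, where 2161 rose and 3087 fell of all 11801 tested genes. Many genes that STAT3 induces are induced by other routes too, so the counts do not measure STAT3 activity.

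**Figure D4:**
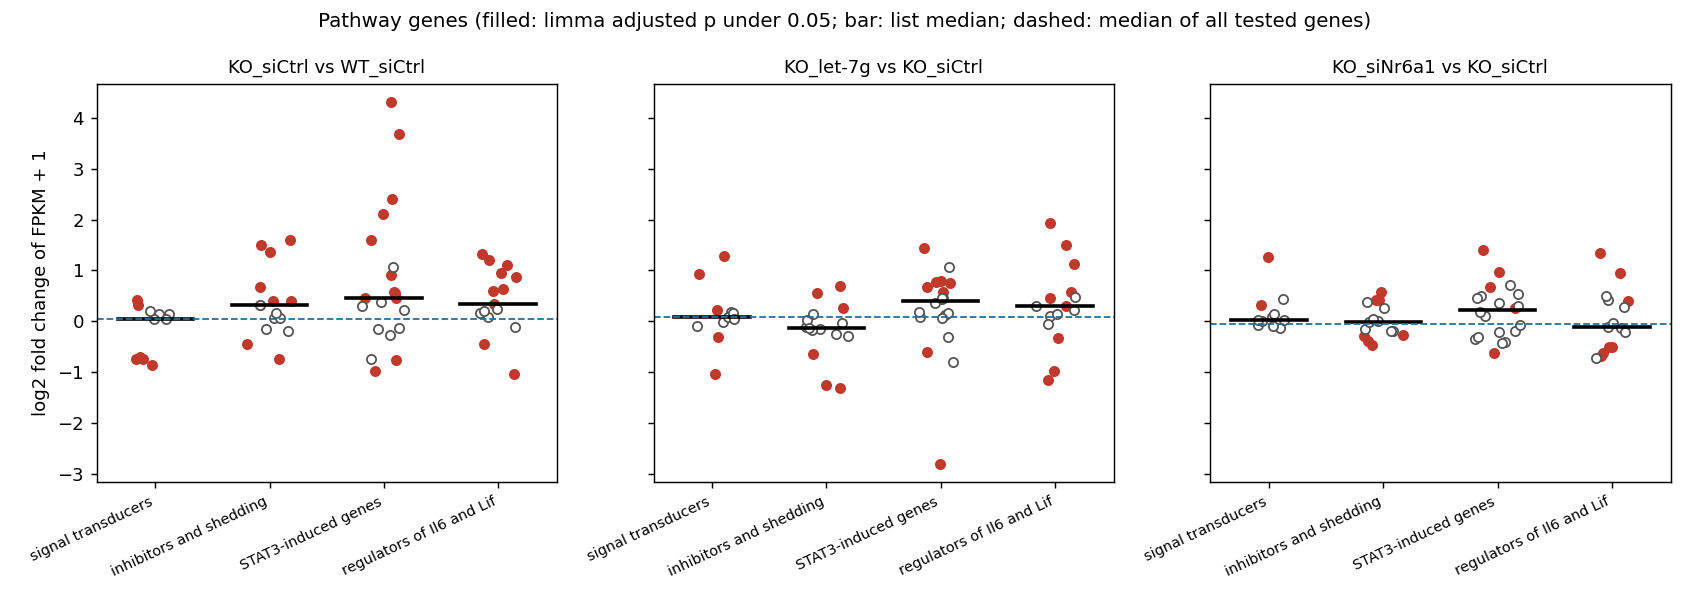
Log2 fold change of FPKM + 1 (vertical axis) of each tested gene in 4 pathway lists, in 3 comparisons, with 3 libraries per group. Filled points have a limma adjusted p under 0.05, bars mark list medians and dashed lines the median of all tested genes. With loss of Dicer1, 10 of 20 STAT3-induced genes rose, where 29.1% of all tested genes did. Of those that rose, Lbp, Saa3 and Lcn2 passed the filter only through KO libraries, so the count is a description.

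Of 15 tested regulators of Il6 and Lif transcription or mRNA decay, 8 rose and 2 fell with loss of Dicer1 (29.1% and 25.2% of all tested genes; list median 0.34 beside 0.04). Nfkbiz, an NF-kB cofactor needed for Il6 induction in macrophages (1.31, limma adjusted p = 3.45e-06), Nfkb1 (0.87, 4.78e-06) and the RNase gene Zc3h12a, whose product degrades Il6 mRNA (1.199, 0.000182), rose. Rela, the NF-kB subunit, was at 33.6, 39.6 and 39.1 in WT_siCtrl, 17.99, 15.8 and 19.5 in KO_siCtrl, 69.9, 64.8 and 76.8 in KO_let-7g and 45.9, 47.5 and 45.8 in KO_siNr6a1. Its groups did not overlap, and it fell with loss of Dicer1 (-1.04, limma adjusted p = 5.4e-06) and rose under let-7g (1.93, 5.34e-07) and the knockdown (1.34, 1.7e-05).

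Under let-7g 6 regulators rose and 3 fell (27.5% and 18.2% of all tested genes). Beside Rela, the AP-1 family gene Atf3 rose (1.49, limma adjusted p = 4.82e-06), as did Relb (1.12, 9.38e-05), and the NF-kB inhibitor Nfkbib (-1.15, 0.00194) and Zc3h12a (-0.97, 0.00111) fell. In the knockdown 3 rose and 4 fell (13.2% and 16.3% of all tested genes), with Relb again among the first (0.96, limma adjusted p = 0.000612). With the block it was 5 and 6, where 2161 rose and 3087 fell of all 11801 tested genes. Both comparisons use the same KO_siCtrl libraries.

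The bases around each start site (250 before, 50 after) were searched on both strands for NF-kB (the consensus and a form with 2 open bases), STAT (TTCNNNGAA), AP-1 (TGANTCA) and C/EBP (TTGCNNAA) words, since these factors act on Il6, Lif and Socs3. RefSeq promoters of build GRCm38.p6 were matched for 9 of the 10 genes, not for Clcf1. The windows of the genes in question are shown with the word in capitals.
Il6, chr5:30013060-30013089, plus strand, looser NF-kB form: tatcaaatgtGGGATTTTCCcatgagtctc
Il6, chr5:30012975-30013004, plus strand, C/EBP: acgacgtcacaTTGTGCAAtcttaataagg
Lif, chr11:4257329-4257358, plus strand, AP-1: ccagtcagctgTGACTCAggccatagtggc
Socs3, chr11:117969501-117969530, minus strand, STAT: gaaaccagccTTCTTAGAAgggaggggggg
Il11 and Osmr each held an AP-1 word, and Il6 did as well. Of 32851 promoters of this length, 0.155% held the NF-kB consensus, 1.63% its looser form, 8.3% the STAT word, 7.81% the AP-1 word and 10.8% the C/EBP word. Il6, which stayed near the floor in all groups, held words for NF-kB, C/EBP and AP-1. Lif held an AP-1 word alone and had the largest fold change of the 8 tested members between KO_siCtrl and WT_siCtrl. A match of letters does not show that a factor acts there, and the part of these words in the levels was not tested. The promoters of Il6ra, Il6st, Lifr and Ctf1 held none of the words in this window, which says nothing about these factors elsewhere.

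The genes most like each member across the 12 libraries were listed by Pearson correlation of log2(FPKM + 1), as a description. For Lif they were Adi1 (r = 0.989), Pdpn (0.988) and Nrarp (0.987), and for Il6ra Elf2 (0.989), Nup50 (0.988) and Irf1 (0.986). Osmr was most like Col5a1 and Bmpr1a (both 0.985), Il6st most like Ankrd52 (0.986), Socs3 most like Itpk1 (0.977), Clcf1 most like Fkbp10 (0.978) and Lifr most like Lipa (0.973). Ctf1 reached 0.895 at most, with Pomp. These values are across 12 libraries of 4 groups, and how far they follow group means or replicate numbers was not tested.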

How the data were processed

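Polyadenylated RNA of 12 libraries was measured in 4 groups of 3. The values are FPKM as the authors deposited them: fragments counted per transcript, divided by its length and by the mapped fragments of the library. TopHat 1.2.0, Cufflinks 1.0.3 and build mm9 were used, per the submitters' processing notes. Settings and strand use are not given in the sources used here. A large change of abundant genes moves all other values, and total depth is unknown. Relative depth was read from the most common ratio of low values between libraries.

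Genes at an FPKM of 1 or more in 3 or more libraries were fitted as log2(FPKM + 1) with limma 3.58.1 in R 4.3.3 (1 coefficient per group, variance trend, 8 residual degrees of freedom). Tests were two-sided, with Benjamini-Hochberg adjustment over all 11801 genes, called under 0.05. The step was tested on simulated data. Il6, Il11 and ratios were also given exact permutation tests, which did not keep libraries of the same number together.

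The members and lists were chosen with earlier results of these data known. The text names the members, Nr6a1, Dicer1 and up to 5 called genes per pathway list and comparison with the smallest adjusted p, plus those a small count needs. Some items are not reported here. Like genes were the 3 with the highest Pearson r.

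Numbers 0 to 2 come from the sample titles. Deviations of same-number libraries from their group means correlated at 0.0915 to 0.465 over 18 pairs, 17 of them over 0.1, and 12 of 12 libraries were closest to their own number. The exception was WT_siCtrl with KO_siNr6a1, replicate 2, so numbers were taken to pair the libraries in the other 5 comparisons, on the data alone. Alternatives were other pseudocounts, filters, scalings, variance settings, the block, and leaving out each library.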

Additional observations from a re-analysis of the deposited data

How the results depend on the processing

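Over 23 alternatives, 1031 of 1098 fold changes of single members stayed on their side of the threshold, 19 lost their call, 48 gained one, and 0 called values reversed. In KO_siNr6a1 against KO_siCtrl, 2 members were called, 1 without the filter or with quantile scaling, 4 with library weights, and 1 to 4 when a library was left out. In KO_let-7g against KO_siCtrl, 2 were called, and 4 with quantile scaling. In KO_let-7g against KO_siNr6a1, 2 were called, 4 with quantile, upper quartile or median of ratios scaling, 5 with library weights, and 1 to 4 when a library was left out. With the replicate block these counts were 5, 5 and 6. In the same order, all genes called went from 3474 to 5248, from 5383 to 6878 and from 4826 to 6461. With library weights 5528 genes were called in KO_siNr6a1 against KO_siCtrl and 6953 in KO_let-7g against KO_siNr6a1. For KO_siNr6a1 against WT_siCtrl, where the numbers were not taken as pairs, 7 members were called with and without the block. Calls of members changed by the block are given with each comparison above, and it changed no others. The causes were not tested.

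Over all genes, calls in KO_let-7g against KO_siCtrl were 3241 higher and 2142 lower, and 2614 and 2617 with quantile or 2632 and 2712 with median of ratios scaling. In KO_let-7g against KO_siNr6a1 they were 3262 and 1564, and 2214 and 2080, 2567 and 1930, and 1971 and 2398 with quantile, upper quartile and median of ratios scaling. In KO_siNr6a1 against KO_siCtrl they were 1556 and 1918, and 1851 and 1438 with median of ratios scaling, and in KO_let-7g against WT_siCtrl 4169 and 2696, and 3111 and 3389. Uncalled values changed sign for Lif in 2 and Osmr in 3 alternatives (KO_let-7g against KO_siCtrl), Ctf1 in 1 (KO_siNr6a1 against KO_siCtrl) and Il6ra in 2 (KO_let-7g against KO_siNr6a1). Precision for Il6, Il11 and Ctf1 is limited by their low FPKM.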
